A study of Sus scrofa with 23 samples.

Results

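The genes described here encode core parts of the mTOR pathway, and their RNA was followed in the prefrontal cortex of pigs after psilocybin or saline. They were chosen by name, as MTOR, RPTOR, RICTOR, AKT1, RPS6KB1, TSC1, TSC2, EIF4E and EIF4EBP2. Of these 9 symbols, 7 were matched to an identifier among the 25880 Ensembl genes of the deposited table, and AKT1 and TSC1 are not analysed here. All 7 matched genes passed the filter on low counts.

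mTOR is a protein kinase that couples growth factor, amino acid and energy signals to protein synthesis. It works in 2 complexes, mTORC1, which contains raptor (RPTOR), and mTORC2, which contains rictor (RICTOR). The tuberous sclerosis complex, of which tuberin (TSC2) is the catalytic subunit, holds mTORC1 in check by acting on the small GTPase RHEB. Active mTORC1 phosphorylates S6 kinase (RPS6KB1) and the 4E-binding proteins, which then release the cap-binding factor eIF4E for translation. In neurons the pathway is known for its part in local translation at synapses and in synaptic plasticity. Most of this regulation is by phosphorylation, which RNA sequencing does not measure.

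Female Danish slaughter pigs of about 20 kg received 1 intravenous injection while awake, and the prefrontal cortex was taken for poly-A selected RNA sequencing. The groups were psilocybin at 0.08 mg/kg with tissue taken after 1 day (n = 6), saline with tissue taken after 1 day (n = 5), psilocybin with tissue taken after 1 week (n = 6) and saline with tissue taken after 1 week (n = 6). All animals, saline animals included, were killed with an overdose of pentobarbital, and no genotype or age is given in the sources used here. Each of the 23 animals gave 1 library, and the labels place the libraries in 2 numbered batches that cross the groups, without saying what a batch is. Total counts ran from 9504421 to 18654626 per library.

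Markers of cortical tissue were present in each library. The summed level of 6 excitatory neuron markers was 5707 to 7253 CPM, that is counts scaled by library total, that of 6 astrocyte markers 2608 to 5645 CPM and that of 5 oligodendrocyte markers 3596 to 20590 CPM. The 5 choroid plexus and ependyma markers with an identifier summed to 3.32 to 14.6 CPM. The 5 blood markers with an identifier summed to 11.8 to 502 CPM, with SLC4A1 at a median of 0. In bulk tissue, fewer cells of a type and less RNA per cell cannot be told apart. The 3 libraries with the highest summary score of 37 genes for cytosolic ribosomal proteins are called here the libraries that stood apart. The score is the mean log2 CPM relative to the mean over libraries. They were psilocybin 1 week animal 6, saline 1 day animal 5 and saline 1 week animal 1. Their scores were 0.39 to 0.89, against -0.54 to 0.28 in the other 20. The 3 were taken as a set without a cut-off on the score. The lowest of them, psilocybin 1 week animal 6 at 0.39, was near the highest of the others, psilocybin 1 week animal 1 at 0.28. By the same kind of score, these 3 libraries were also the lowest for the 4 endothelial and mural markers tested. They were at -0.407, -0.57 and -0.345, in the order named above, against -0.175 or higher in the others. Saline 1 day animal 5 was the highest for 5 oligodendrocyte markers at 0.895, and saline 1 day animal 4 the lowest at -1.09. The part of cell composition in the members' values was not tested. Apart from likeness to other genes, results of the members that rest on the 3 libraries are given with and without them.

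The 7 genes lie on 6 chromosomes of the susScr11 pig genome. The values of each gene are counts over its annotated exons, and the positions below span those exons. MTOR (ENSSSCG00000003413) lies at chr6:71285103-71448662, RPTOR (ENSSSCG00000017139) at chr12:1709128-1991574 and RICTOR (ENSSSCG00000016853) at chr16:24109947-24311162, all on the minus strand. TSC2 (ENSSSCG00000008040) lies at chr3:39896887-39979949 on the minus strand. RPS6KB1 (ENSSSCG00000017670) lies at chr12:36111579-36160383, EIF4E (ENSSSCG00000028420) at chr8:121409716-121466897 and EIF4EBP2 (ENSSSCG00000034444) at chr14:73323620-73349289, all on the plus strand. The counting ignored strand and divided reads between overlapping genes, so reads of a neighbour on the other strand cannot be told apart from a member's own where exons overlap. TSC2 shared 24.3% of its exon bases with PKD1 on the opposite strand and 3.15% with NTHL1. RPS6KB1 shared 4.43% with TUBD1, and RPTOR, RICTOR, EIF4E and EIF4EBP2 shared no exon bases with another gene.

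Levels in RPKM, that is counts scaled by exon length and TMM-adjusted library total, differed several-fold between members. The length is that of all annotated exons of a gene, not of its expressed transcripts, so ratios between genes depend on the annotation. TSC2 was the highest at a mean of 18.9 RPKM over the 23 libraries, above 79.6% of the 15049 genes tested. EIF4E followed at 13.4 RPKM, RPTOR at 11.7 RPKM, EIF4EBP2 at 10.5 RPKM and MTOR at 8.36 RPKM. RPS6KB1 at 4.60 RPKM and RICTOR at 2.58 RPKM were lowest, and RICTOR was above 29.6% of the genes tested. The 2 steps at the bottom of this order held in each library, with MTOR above RPS6KB1 and RPS6KB1 above RICTOR in 23 of 23. The middle of the order was less firm. EIF4E was above RPTOR in 18 of 23 libraries and RPTOR above EIF4EBP2 in 18 of 23, with means 1.15 and 1.12 times apart, so these neighbours overlapped in their spread. Within single libraries the RNA of the mTORC1 subunit raptor was 3.0 to 5.95 times that of the mTORC2 subunit rictor, with a median of 4.51. The cap-binding factor EIF4E was 1.03 to 1.77 times its binding protein EIF4EBP2, with a median of 1.24, so EIF4E was the higher of this pair throughout.

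**Figure D1:**
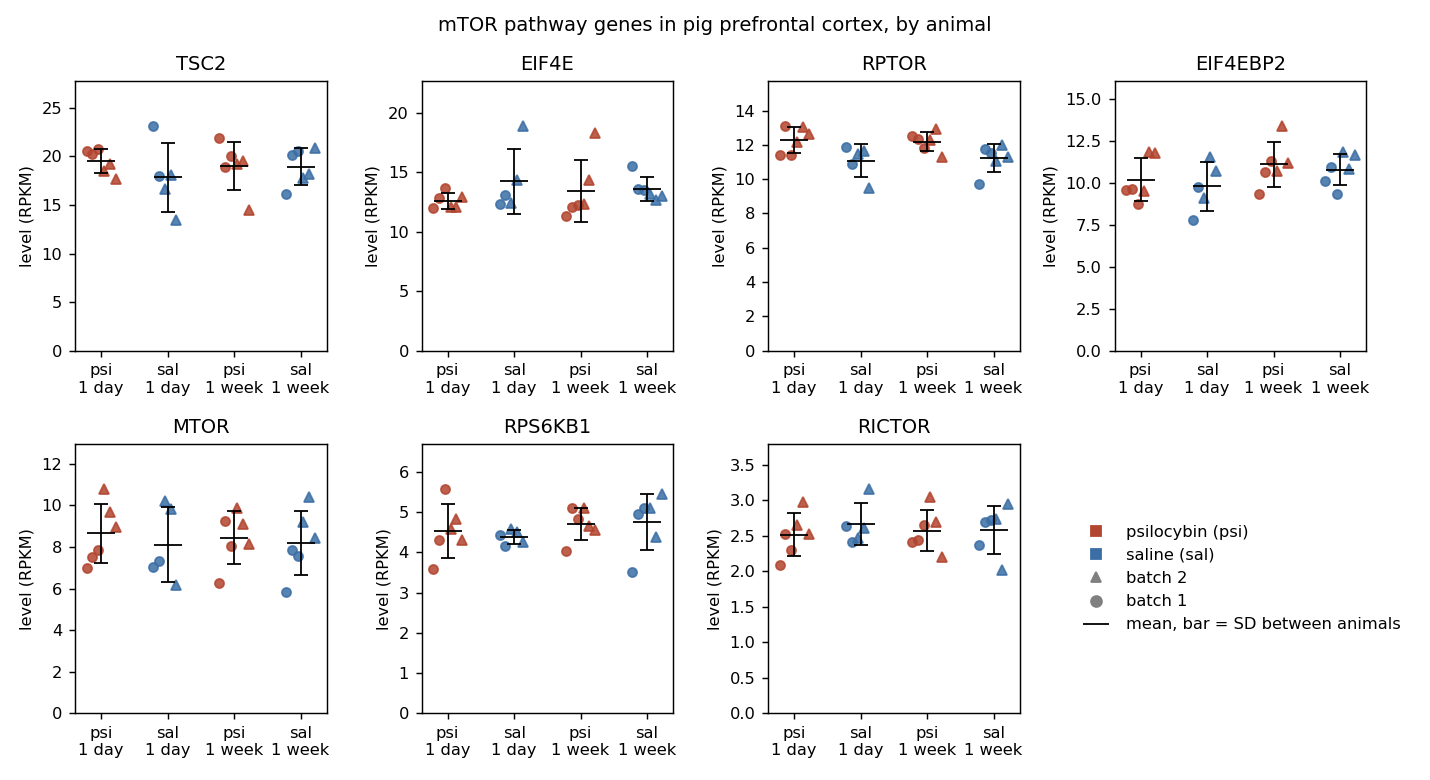
Levels of the 7 genes in RPKM (vertical axes, each starting at 0) by animal in the psilocybin (red) and saline (blue) groups at 1 day and 1 week, with batch 2 as triangles and batch 1 as circles, and the mean with the SD between animals in black. Psilocybin and saline animals overlap for each gene at both times, and in MTOR the triangles lie mostly above the circles.

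Psilocybin against saline was compared at each time to ask whether a single dose was followed by a change in the RNA of these genes. At 1 day, 0 of 7 members passed an adjusted p of 0.05 in edgeR's quasi-likelihood test, against 0% of the 15049 genes tested, and 1 member had an unadjusted p under 0.05, against 2.83% of all genes. At 1 week 0 of 7 passed, again against 0% of genes, and 0 members had an unadjusted p under 0.05, against 1.99% of all genes. DESeq2 and limma-voom also called 0 genes at either time. Over the 7 members, the 95% intervals of the fold change ran from 0.762 to 1.28 at 1 day and from 0.847 to 1.21 at 1 week. These intervals are per gene and are not limits on what could have been missed.

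MTOR, the kinase itself, had a lowest, median and highest level of 7.01, 8.42 and 10.8 RPKM in psilocybin pigs at 1 day, against 7.02, 7.33, 10.2, 9.80 and 6.18 RPKM in the 5 saline pigs. The groups covered almost the same range. At 1 week the lowest, median and highest levels were 6.25, 8.61 and 9.89 RPKM in psilocybin pigs, against 5.84, 8.13 and 10.4 RPKM in saline pigs. The log2 fold change was 0.12 ± 0.12 (SE) at 1 day, with a 95% interval of -0.12 to 0.36, and 0.05 ± 0.11 at 1 week, with an interval of -0.18 to 0.28 (edgeR, adjusted p = 1 for both). Without the 3 libraries that stood apart, the log2 fold change at 1 day was 0.016.

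RPTOR, the scaffold that brings substrates to mTORC1, was the member with the smallest p in both comparisons. At 1 day its levels were 11.4, 12.4 and 13.1 RPKM (lowest, median and highest) in psilocybin pigs, against 11.9, 10.9, 11.5, 11.6 and 9.5 RPKM in saline pigs. At 1 week they were 11.3, 12.3 and 12.9 RPKM in psilocybin pigs, against 9.71, 11.4 and 12 RPKM in saline pigs. The 2 lowest levels at each time belonged to saline animals, and the groups still overlapped. Group means were 12.3 ± 0.77 RPKM after psilocybin and 11.1 ± 0.96 RPKM after saline at 1 day (SD, n = 6 and 5), and 12.2 ± 0.57 RPKM after psilocybin and 11.2 ± 0.82 RPKM after saline at 1 week (SD, n = 6 each). The fold change was 1.11 at 1 day, with a 95% interval of 1.00 to 1.23 and an unadjusted edgeR p of 0.0443 (adjusted p = 1), and 1.09 at 1 week, with an interval of 0.985 to 1.20 and an unadjusted p of 0.0929 (adjusted p = 1). Averaged over both times, the log2 fold change of RPTOR was 0.13 ± 0.05, with a 95% interval of 0.033 to 0.235 and an unadjusted edgeR p of 0.0113, which ranked 76 of 15049 genes and had an adjusted p of 0.998. In that averaged comparison 0 of 7 members passed, against 0% of genes, and 3.04% of genes had an unadjusted p under 0.05. RPTOR in this average was singled out after its values were seen. Its averaged value was 0.14 in batch 2 alone and 0.11 in batch 1 alone, and 0.11 without the 3 libraries that stood apart. At 1 day its log2 fold change was 0.10 without saline 1 day animal 5, whose 9.5 RPKM was the lowest value of all. The unadjusted edgeR p at 1 day was 0.0596 without a filter and 0.0512 without a batch term. It was 0.094 with the compared groups alone and 0.105 without the 3 libraries. The unadjusted p stayed under 0.05 with RLE size factors (edgeR, 0.0389), DESeq2 (0.0246) and limma-voom (0.0433).

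RICTOR, the defining subunit of mTORC2, had levels of 2.09, 2.52 and 2.98 RPKM (lowest, median and highest) in psilocybin pigs at 1 day, against 2.64, 2.42, 2.47, 2.61 and 3.16 RPKM in saline pigs. At 1 week the corresponding levels were 2.20, 2.55 and 3.05 RPKM in psilocybin pigs, against 2.02, 2.71 and 2.94 RPKM in saline pigs. The ranges lay over each other at both times. Its log2 fold change was -0.07 ± 0.10 at 1 day and -0.01 ± 0.10 at 1 week (SE, edgeR adjusted p = 1 for both), with 95% intervals of -0.29 to 0.14 and -0.21 to 0.20. The log2 fold change at 1 day was -0.012 without the 3 libraries that stood apart.

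TSC2, the brake on mTORC1, had levels of 17.7, 19.7 and 20.8 RPKM (lowest, median and highest) in psilocybin pigs at 1 day, against 23.1, 18.0, 16.6, 18.1 and 13.4 RPKM in saline pigs. The saline pigs at 1 day held both the highest and the lowest TSC2 level of all 23 animals. At 1 week the levels were 14.4, 19.4 and 21.9 RPKM in psilocybin pigs, against 16.1, 19.2 and 20.9 RPKM in saline pigs. The log2 fold change was 0.12 ± 0.10 at 1 day, with an interval of -0.09 to 0.32, and 0.00 ± 0.10 at 1 week, with an interval of -0.20 to 0.20 (edgeR, adjusted p = 1 for both). At 1 day it was 0.046 without the 3 libraries that stood apart, 0.193 in batch 2 alone and 0.003 in batch 1 alone.

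RPS6KB1, which encodes the S6 kinase that mTORC1 activates, had levels of 3.58, 4.44 and 5.58 RPKM (lowest, median and highest) in psilocybin pigs at 1 day, against 4.42, 4.15, 4.57, 4.51 and 4.24 RPKM in saline pigs. The saline values lay inside the psilocybin range. At 1 week the levels were 4.04, 4.73 and 5.10 RPKM in psilocybin pigs, against 3.52, 5.02 and 5.45 RPKM in saline pigs. The log2 fold change was 0.06 ± 0.11 at 1 day and -0.01 ± 0.10 at 1 week (SE, edgeR adjusted p = 1 for both), with 95% intervals of -0.16 to 0.27 and -0.22 to 0.20.

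EIF4E, the cap-binding factor, had levels of 12, 12.5 and 13.7 RPKM (lowest, median and highest) in psilocybin pigs at 1 day, against 12.4, 13.1, 12.5, 14.3 and 18.9 RPKM in saline pigs. At 1 week the levels were 11.3, 12.3 and 18.3 RPKM in psilocybin pigs, against 12.7, 13.4 and 15.6 RPKM in saline pigs. The highest value in each of these groups other than psilocybin at 1 day belonged to a library that stood apart. Its log2 fold change was the lowest of the members at 1 day, at -0.16 ± 0.11 with an interval of -0.39 to 0.07, and -0.02 ± 0.11 at 1 week with an interval of -0.24 to 0.20 (edgeR, adjusted p = 1 for both). Without the 3 libraries the value at 1 day was -0.05, and it was -0.31 in batch 2 alone and 0.01 in batch 1 alone.

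EIF4EBP2, the 4E-binding protein that is prominent in brain, had levels of 8.76, 9.62 and 11.8 RPKM (lowest, median and highest) in psilocybin pigs at 1 day, against 7.81, 9.74, 9.08, 11.6 and 10.7 RPKM in saline pigs. At 1 week the levels were 9.33, 10.9 and 13.4 RPKM in psilocybin pigs, against 9.34, 10.9 and 11.8 RPKM in saline pigs. Medians differed little between treatments at either time. The log2 fold change was 0.08 ± 0.09 at 1 day and 0.04 ± 0.08 at 1 week (SE, edgeR adjusted p = 1 for both), with 95% intervals of -0.10 to 0.25 and -0.13 to 0.21.

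Groups that do not overlap were counted as well. For 0 of 7 members did the psilocybin animals fail to overlap the saline animals at 1 day, against 0.126% of genes, and for 0 of 7 at 1 week, against 0.0465% of genes. As a list, the members had a median log2 fold change of 0.08 at 1 day, against 0.004 over all genes tested, with 5 of 7 above 0, and of 0 at 1 week, against -0.003 over all genes, with 4 of 7 above 0. At 1 day, 37 of 37 ribosomal protein genes lay below 0 with a median of -0.23, and 0 of them passed. Their score in saline 1 day animal 5, a library that stood apart, was 0.886. It was 0.152, 0.06, -0.487 and -0.347 in the other saline animals, against -0.538 to 0.249 after psilocybin. Fold changes of these genes without that library are not given here. The part of the ribosomal protein genes in the members' values at 1 day was not tested.

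**Figure D2:**
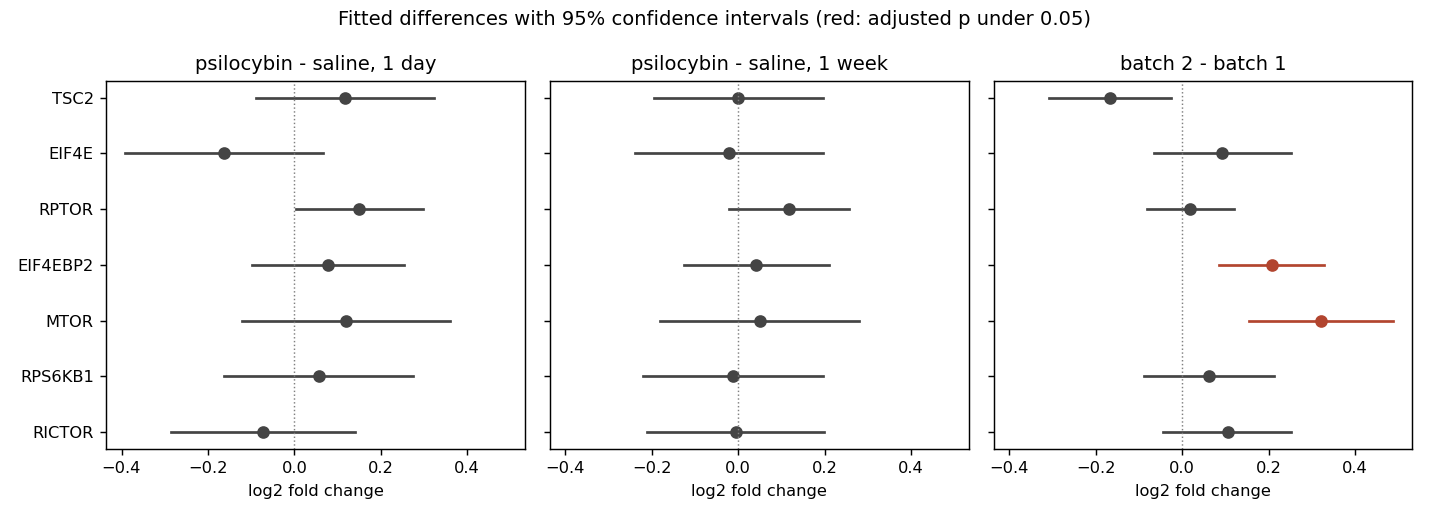
Log2 fold changes (horizontal axes) of the 7 genes with 95% confidence intervals, for the psilocybin animals against the saline animals after 1 day, after 1 week, and for batch 2 against batch 1, with genes past an adjusted p of 0.05 in red. Intervals for psilocybin at 1 week include 0 for each gene, that of RPTOR at 1 day lies just above 0, and MTOR and EIF4EBP2 are red between batches.

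The effect of psilocybin at 1 week minus that at 1 day was tested directly, and 0 of 7 members passed (edgeR, 0% of genes passed, 2.02% of genes had an unadjusted p under 0.05). The differences on the log2 scale were -0.07 ± 0.16 for MTOR, -0.03 ± 0.10 for RPTOR, 0.07 ± 0.14 for RICTOR and -0.12 ± 0.14 for TSC2 (SE). For the outputs they were -0.07 ± 0.15 for RPS6KB1, 0.14 ± 0.15 for EIF4E and -0.04 ± 0.12 for EIF4EBP2. The 95% intervals included 0 for each, with the widest running from -0.40 to 0.26 for MTOR and from -0.18 to 0.46 for EIF4E.

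Time after the injection was compared within each treatment, 1 week against 1 day. After psilocybin 0 of 7 members passed, against 0% of genes by edgeR, with 3.18% of genes at an unadjusted p under 0.05. After saline 0 of 7 passed, against 0% of genes, with 2.01% of genes at an unadjusted p under 0.05. EIF4EBP2 had the smallest p of the members in both. Its mean level after psilocybin was 11.1 ± 1.32 RPKM at 1 week and 10.2 ± 1.28 RPKM at 1 day (SD, n = 6 each), a log2 fold change of 0.13 ± 0.08 (edgeR, adjusted p = 0.999). After saline it was 10.8 ± 0.93 RPKM at 1 week and 9.78 ± 1.45 RPKM at 1 day (SD, n = 6 and 5), a log2 fold change of 0.16 ± 0.09 (edgeR, adjusted p = 1). DESeq2 called 1 gene in each of these comparisons, and it was not a member.

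Other genes of the pathway were taken from lists of complex subunits, growth factor input, amino acid and energy input, and output, with 76 of 81 symbols tested. At 1 day 0 of 76 passed, with 47 above 0 and 29 below 0 and a median log2 fold change of 0.03. RHEB, the GTPase that activates mTORC1, had the smallest p, at -0.19 ± 0.09 (SE), followed by SREBF1, a lipid synthesis regulator, at 0.13 ± 0.08, TELO2, a chaperone for kinases of the mTOR type, at 0.12 ± 0.08, and the insulin receptor INSR at 0.32 ± 0.21 (edgeR, adjusted p = 1 for each). At 1 week 0 of 76 passed, with 36 above 0 and 40 below 0 and a median of -0.003. MAPKAP1, an mTORC2 subunit, was at -0.14 ± 0.07, AKT1S1, the mTORC1 inhibitor PRAS40, at -0.16 ± 0.08, TBC1D7, a subunit of the tuberous sclerosis complex, at -0.26 ± 0.15, and LARP1, a repressor of the translation of ribosomal protein mRNAs, at 0.36 ± 0.22 (SE, edgeR adjusted p = 1 for each).

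The 2 batches differed in more genes than any treatment or time comparison. Of the 7 members 2 passed, both higher in batch 2, against 32.9% of the 15049 genes passing in either direction and 16.1% passing as higher. An unadjusted p under 0.05 was reached by 3 of 7 members, against 43.6% of genes. A count of 2 of 7 is near the share in either direction. MTOR averaged 9.23 ± 1.24 RPKM in batch 2 and 7.41 ± 0.91 RPKM in batch 1 (SD, n = 12 and 11), with ranges of 6.18 to 10.8 RPKM in batch 2 and 5.84 to 9.23 RPKM in batch 1. Its log2 fold change was 0.32 ± 0.08 (SE, edgeR adjusted p = 0.0045), and its mean was higher in batch 2 in 4 of 4 groups, by 0.20 to 0.40 on the log2 scale. EIF4EBP2 averaged 11.2 ± 1.13 RPKM in batch 2 and 9.75 ± 0.99 RPKM in batch 1 (SD, n = 12 and 11), a log2 fold change of 0.21 ± 0.06 (SE, edgeR adjusted p = 0.010), and was also higher in 4 of 4 groups. TSC2 averaged 17.8 ± 2.11 RPKM in batch 2 and 20.0 ± 1.88 RPKM in batch 1, at -0.17 ± 0.07 (SE, edgeR adjusted p = 0.0627), and passed without saline 1 week animal 1 (adjusted p = 0.0395) or without saline 1 week animal 6 (adjusted p = 0.0325). The other members were at 0.02 ± 0.05 for RPTOR, 0.10 ± 0.07 for RICTOR, 0.06 ± 0.07 for RPS6KB1 and 0.09 ± 0.08 for EIF4E. For 0 of 7 members did the batches fail to overlap, against 0.545% of genes.

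Of the 76 other pathway genes 31 passed between batches, against 32.9% of all genes tested. Of these 17 were higher in batch 2, against 16.1% of all genes, and 14 were lower, against 16.8%. In the growth factor branch, the receptor INSR, the adaptors IRS1 and IRS2, the PI3-kinase subunits PIK3CA and PIK3CB, and the kinase PDPK1 were higher, with IRS2 at 0.69 ± 0.15 and PIK3CA at 0.32 ± 0.08 (log2, SE), while RHEB and the stress-induced inhibitor DDIT4 were lower. Among regulators that respond to nutrients and energy, the AMP kinase subunits PRKAA1 and PRKAA2, the arginine sensor SLC38A9, WDR59 and SESN3 were higher, with PRKAA2 at 0.30 ± 0.07. FLCN, WDR24, LAMTOR1, ITFG2 and the kinase STK11 were lower, with FLCN, a GTPase activator for Rag proteins, at -0.29 ± 0.07. In the list taken as output, LARP1 at 0.90 ± 0.16, HIF1A at 0.41 ± 0.06, EIF4G2 at 0.34 ± 0.05, EIF4G3 and EEF2K were higher. In the same list, RPS6KB2 at -0.42 ± 0.09, EIF4EBP1 at -0.45 ± 0.11, RPS6KA1, EIF4A1 and SREBF1 were lower. The paralogues thus differed in direction, since EIF4EBP2 was higher and EIF4EBP1 lower in batch 2. Among subunits and assembly factors, TTI1 was higher and MLST8 and AKT1S1 were lower. Of these 31 calls 16 held under each scaling, filter, tool and left-out library that was tried, and 8 were lost in at least 1 setting other than leaving out 1 animal, namely AKT1S1, RHEB, LAMTOR1, ITFG2, STK11, RPS6KA1, EIF4A1 and SREBF1. A further 7 were lost only when 1 animal was left out, namely EEF2K, INSR, MLST8, PIK3CB, PRKAA1, SLC38A9 and TTI1.

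Values of other gene groups are given beside the batch comparison. Of 37 ribosomal protein genes 36 lay below 0, with a median of -0.25 against -0.02 over all genes, and 5 of 37 passed as lower in batch 2, a smaller share than the 16.8% of all genes that did. The summed level of 6 astrocyte markers was 3900 to 5491 CPM in batch 2 and 2608 to 5645 CPM in batch 1, that of 6 microglia markers 126 to 257 CPM in batch 2 and 191 to 309 CPM in batch 1, and that of 5 blood markers 11.8 to 73.4 CPM in batch 2 and 21.2 to 502 CPM in batch 1. The batches overlapped in each of these sums, and the sums were not tested. The part of these groups in the batch difference of MTOR and EIF4EBP2 was not tested. Without the 3 libraries standing apart, MTOR was at 0.38 and EIF4EBP2 at 0.23 between batches.

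**Figure D3:**
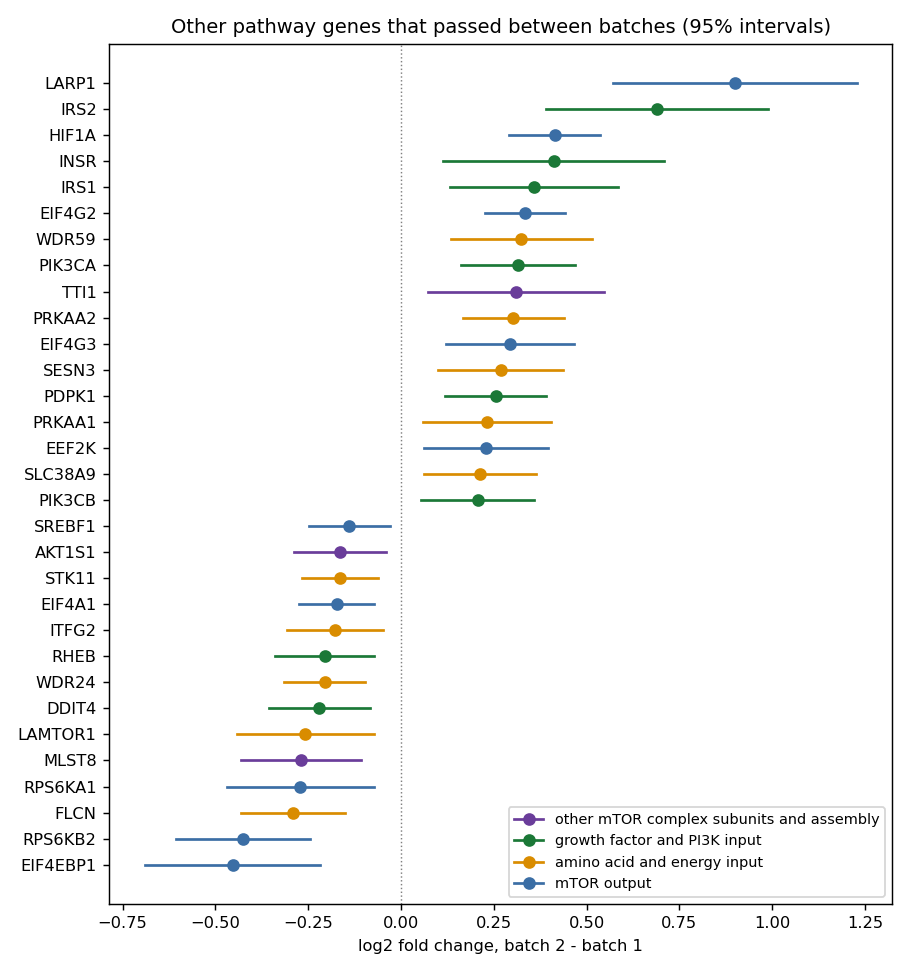
Log2 fold changes with 95% confidence intervals (horizontal axis, batch 2 against batch 1) of the 31 other pathway genes that passed, coloured by list. There are 17 genes to the right of 0 and 14 to the left, with LARP1 highest at 0.90 and EIF4EBP1 lowest at -0.45.

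The 3 libraries that stood apart carried much of the members' spread. EIF4E was at 18.3 RPKM in psilocybin 1 week animal 6, 18.9 RPKM in saline 1 day animal 5 and 15.6 RPKM in saline 1 week animal 1, against 11.3 to 14.4 RPKM in the other 20 libraries. TSC2 was at 14.4, 13.4 and 16.1 RPKM in the same 3 libraries, against 16.6 to 23.1 RPKM in the other 20. These values did not overlap the others for either gene, in opposite directions. RPTOR at 9.5 to 11.3 RPKM lay at the low end, against 10.9 to 13.1 RPKM in the other 20. MTOR was at 5.84 RPKM in saline 1 week animal 1 and 6.18 RPKM in saline 1 day animal 5, against 6.25 to 10.8 RPKM in the other 20. In psilocybin 1 week animal 6 it was at 8.14 RPKM, the median of all 23 libraries. RICTOR, RPS6KB1 and EIF4EBP2 lay within or next to the range of the others.

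MTOR followed the ribosomal protein score across animals, in the opposite direction. After group and batch means were removed, Pearson's r was -0.92 and Spearman's rho -0.91 over 23 libraries (permutation p = 1e-05 for each, the smallest that 100000 permutations can give, adjusted p = 7e-05 over 7 members). The coefficient was -0.85 without the 2 libraries farthest from the median score, -0.94 within batch 2, -0.93 within batch 1 and -0.83 without the 3 libraries that stood apart. Among all 15049 genes 0.106% had a lower r, and the middle of the distribution was wide, with a median of -0.06 and a 5th to 95th percentile of -0.72 to 0.81. For EIF4E r was 0.77 and rho 0.52 (permutation p = 0.00014 and 0.0126, adjusted p = 0.00049 and 0.0441), and r was -0.01 without the 3 libraries, so the relation rests on those samples. The negative r of RPTOR at -0.66 and of TSC2 at -0.59 (permutation p = 0.00147 and 0.00393) also rest on them. Without them r was 0.27 for RPTOR and 0.57 for TSC2, and rho was -0.22 and -0.13 over all 23. The r of TSC2 without them passed in the opposite direction (adjusted permutation p = 0.0317). RPS6KB1 had r = -0.45 (permutation p = 0.0316, adjusted p = 0.0442) and rho = -0.41 (adjusted permutation p = 0.123), and r was -0.36 without the 3 libraries (adjusted permutation p = 0.274), so the call was lost in both. RICTOR at 0.14 and EIF4EBP2 at 0.12 had adjusted permutation p of 0.581 each.

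**Figure D4:**
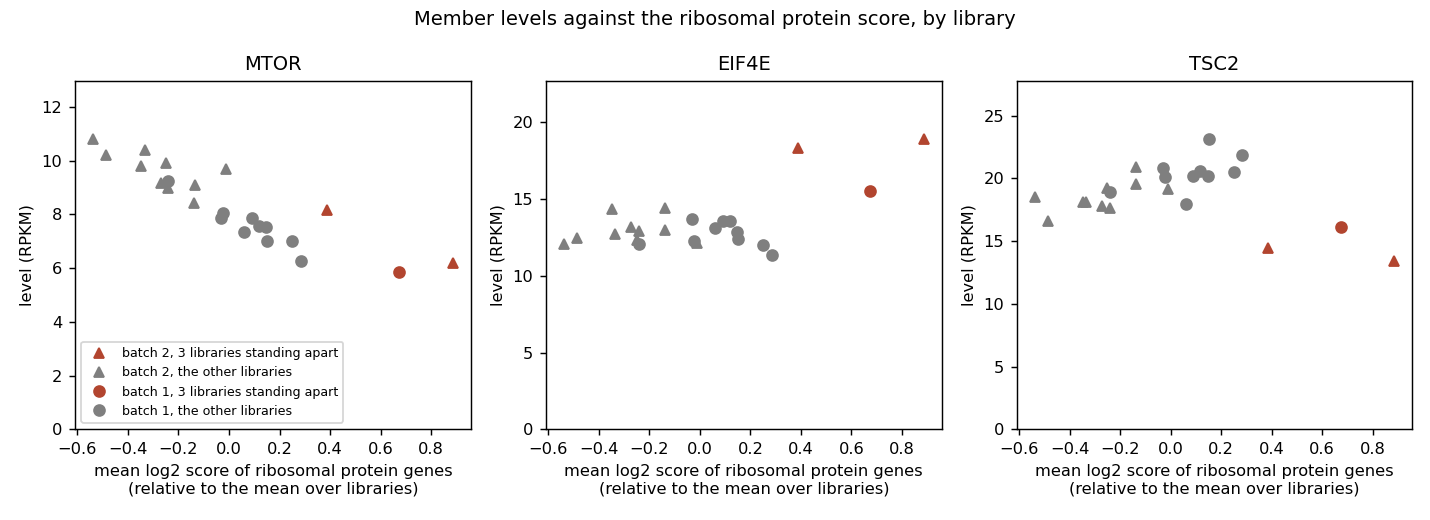
Levels of MTOR, EIF4E and TSC2 (vertical axes, RPKM) against the ribosomal protein score (horizontal axes, mean log2 relative to the mean over libraries) in 23 libraries, with the 3 libraries that stood apart in red, batch 2 as triangles and batch 1 as circles. MTOR falls along the whole range of the score, while the 3 red libraries lie above the other 20 for EIF4E and below them for TSC2.

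Between members, 5 of 21 pairs passed by Pearson's r after adjustment over the 21 pairs, and 0 of 21 by Spearman's rho. They were RPTOR with TSC2 at 0.74, TSC2 with EIF4E at -0.74, RPTOR with EIF4E at -0.67, MTOR with RPTOR at 0.62 and MTOR with EIF4E at -0.62 (permutation p of 9e-05 to 0.00212). Without the 3 libraries these coefficients were 0.22, -0.06, 0.009, -0.02 and 0.05, so the 5 relations rest on those samples. EIF4E and its binding protein EIF4EBP2 had r = 0.21 (permutation p = 0.340, adjusted p = 0.570).

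The genes whose levels ran most like each member's over the 23 libraries, after group and batch means were removed, are given as a description. They share libraries and depth with the member. MTOR ran closest with PTPRS, a receptor phosphatase, and NRCAM, a neuronal adhesion molecule, at r = 0.96 for both. RPTOR ran with URB1 at 0.88 and ACTN1 at 0.85, and RICTOR with FAP at 0.82 and ZBED5 at 0.80. TSC2 ran with PHRF1 at 0.95 and IFT140 at 0.94, RPS6KB1 with CPSF6 at 0.92 and BICRAL at 0.91, and EIF4E with RBM18 at 0.96 and STRAP at 0.95. EIF4EBP2 ran with TGIF2 at 0.75. Without the 2 libraries farthest from the member's median, these coefficients ran from 0.67 for RPTOR with ACTN1 to 0.93 for EIF4E with RBM18. Within a single batch the lowest was 0.62, for EIF4EBP2 with TGIF2 in batch 2. Likeness without the 3 libraries that stood apart was not computed.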

How the data were processed

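Prefrontal cortex RNA of 23 pigs was analysed from the deposited table of expected counts, which can be fractional because the authors divided a read among the genes it overlapped. The submitters' processing notes name fastp 0.20.0 for trimming, STAR 2.6c with the susScr11 build for alignment, and featureCounts 1.5.1 for counting. Counting took primary alignments, required both mates of a pair to map and ignored strand, per the file headers. Of the values 72.2% were whole, and rounding changed a library's total by at most 0.0013%. Symbols were found for 14857 of 25880 identifiers.

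Rounded counts were scaled by TMM and filtered with filterByExpr (minimum count 10, minimum total 15), which left 15049 genes. They were fitted with edgeR 4.0.16 (robust quasi-likelihood F test, R 4.3.3) in 1 model with 4 groups and batch, with two-sided p-values adjusted by Benjamini-Hochberg over all genes at 0.05. The fit was tested on simulated data. RPKM uses the exon length from the table. Correlations used log2 CPM (prior count 2), 100000 permutations and scipy 1.17.1. Their precision is limited by 5 or 6 animals per group. Animal numbers are not shared between groups, so no pairing was used.

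All members are named, with the 4 other pathway genes of smallest p at 1 day, the 4 at 1 week and those past the threshold in any comparison. In the time comparisons the member with the smallest p is named, and 2 genes are named per member for likeness, except for EIF4EBP2, where 1 is not reported here. Members and lists were chosen with earlier results of these data known. Alternatives were no filter, size factors by RLE, a filter of 1 CPM or more in 5 libraries, limma-voom (limma 3.58.1), DESeq2 1.42.0, a fit without batch, a fit of only the groups compared, batch 1 or batch 2 by itself, the removal of the 3 libraries standing apart, and leaving out each animal. For the correlations, leaving out the 3 libraries and keeping group and batch means were added after the data were seen.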

Additional observations from a re-analysis of the deposited data

Results flagged for a closer look

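The RPKM of EIF4E was checked with that of the other members in each group, 28 gene and group combinations in all, and 1 was flagged for a sample far from the others. In saline animals at 1 week, animal 1 had 15.6 RPKM, and its gap to the nearest animal was 0.697 of the group's whole range. Chance flags about 1 in 20 such groups. This library is 1 of the 3 that stood apart by their ribosomal protein score. The others of the 3 were not flagged, though EIF4E was higher in them. It was at 18.9 RPKM in saline 1 day animal 5 and 18.3 RPKM in psilocybin 1 week animal 6.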

How the results depend on the processing

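The counts of members called did not change in the psilocybin, difference and time comparisons under any alternative run, and were 2 to 3 between batches when 1 animal was left out. DESeq2 called 1 gene after psilocybin and 1 after saline in the comparison of 1 week with 1 day, against 0 by edgeR, and leaving out 1 animal gave 0 to 1 in each. Genes called between batches numbered 3850 to 5647 with 1 animal left out. No call for a member was made in a treatment comparison, and the following log2 fold changes took the other sign. In batch 1 alone, EIF4E at 1 day was 0.014, RPS6KB1 at 1 week 0.039, and the difference between times 0.085 for MTOR, 0.080 for RPTOR, 0.098 for TSC2 and -0.272 for EIF4E. In batch 2 alone, the values at 1 week were -0.048 for MTOR, 0.047 for RICTOR, -0.094 for TSC2 and 0.211 for EIF4E. Without the 3 libraries standing apart, RICTOR at 1 week was 0.040 and the difference between times was 0.031 for MTOR, 0.015 for RPTOR and -0.017 for EIF4E. TSC2 at 1 week was -0.003 with RLE size factors, without a filter and by DESeq2. With 1 animal left out, the values at 1 week ran from -0.019 to 0.100 for MTOR, -0.079 to 0.049 for RICTOR, -0.074 to 0.026 for RPS6KB1, -0.050 to 0.062 for TSC2 and -0.120 to 0.041 for EIF4E, and RPS6KB1 at 1 day ran from -0.021 to 0.104. The differences between times ran from -0.141 to 0.040 for MTOR, -0.065 to 0.024 for RPTOR, -0.010 to 0.118 for RICTOR, -0.125 to 0.008 for RPS6KB1 and -0.081 to 0.014 for EIF4EBP2. Without the 3 libraries, the correlations with the ribosomal protein score were 0.267 for RPTOR, 0.568 for TSC2 (adjusted permutation p = 0.0317) and -0.010 for EIF4E, and those between members were -0.015 for MTOR with RPTOR, 0.052 for MTOR with EIF4E and 0.009 for RPTOR with EIF4E. EIF4EBP2 with that score was -0.153 with group and batch means kept. The cause of these changes was not tested. No paired analysis was possible because the groups share no animal numbers. With 5 or 6 animals per group, changes within the intervals given remain possible. The intervals are per gene and are not limits of detection, since a call needed an adjusted p over all genes tested.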
